A study of Mus musculus with 2 samples.

Results

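The 7 genes Scnn1a, Scnn1b, Scnn1g, Atp1b1, Cftr, Slc12a2 and Aqp1, chosen by name for their parts in salt and water transport across the lung lining, were followed in the cells of the newborn mouse lung. All 7 were detected in both batches, among 26867 genes with at least 1 unique molecular identifier (UMI, a tag that marks 1 captured transcript). Whole lungs of 2 wild-type (wt) female C57BL/6J mice were dissociated at postnatal day 1 (PND1), 1 mouse per batch, and captured as single cells in droplets (Drop-seq). No treatment, other age or other genotype was compared, so the comparisons below are between cell types of the same 2 mice. Red blood cells were lysed and the cells strained and settled before capture, so the cell numbers need not be those of the tissue. Cells with at most 10% mitochondrial UMIs were used, which left 2388 cells in Batch 1 and 5615 in Batch 2.

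Before birth the lung is filled with fluid that its epithelium secretes, and around birth the epithelium turns to absorbing it. The epithelial sodium channel, built from the subunits encoded by Scnn1a, Scnn1b and Scnn1g, lets sodium enter across the apical membrane, and the sodium pump, whose beta subunit is encoded by Atp1b1, moves it out across the basolateral membrane, with water following. Chloride secretion uses the cotransporter NKCC1 (Slc12a2), which loads chloride into the cell, and the chloride channel CFTR (Cftr). In the lung, the water channel aquaporin 1 (Aqp1) is best known from blood vessel walls.

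The beta and gamma subunit genes are neighbours. Scnn1g lies on chromosome 7 from 121734479 to 121768475 and Scnn1b from 121865038 to 121918514 of GRCm38 (mm10), both on the plus strand and 96562 bases apart. Scnn1a lies on chromosome 6 from 125320659 to 125344943 on the plus strand. The 250 bases before the starts of this gene pair are shown because both genes had their highest level in the same cell class, AT1-like cells. Windows of this kind were given for 5 of the 7 genes, and the sequences are those of RefSeq on GRCm38.p6, 5′ to 3′ on the plus strand, at chr7:121734229-121734478 for Scnn1g and chr7:121864788-121865037 for Scnn1b. Capitals mark every match to the searched motifs.
Scnn1g: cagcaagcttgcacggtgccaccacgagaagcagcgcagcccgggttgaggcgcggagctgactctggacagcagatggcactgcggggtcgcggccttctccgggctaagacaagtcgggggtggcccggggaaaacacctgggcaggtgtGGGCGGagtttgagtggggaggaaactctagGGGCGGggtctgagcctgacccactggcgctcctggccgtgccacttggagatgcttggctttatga
Scnn1b: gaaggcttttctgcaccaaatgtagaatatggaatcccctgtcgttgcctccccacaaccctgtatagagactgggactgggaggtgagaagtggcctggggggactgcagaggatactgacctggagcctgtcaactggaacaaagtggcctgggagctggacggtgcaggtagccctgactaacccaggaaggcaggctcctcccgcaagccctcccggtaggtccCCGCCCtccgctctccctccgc
The motifs searched on both strands were a glucocorticoid receptor half-site (AGAACA), a TEAD site (GGAATG), an NKX2-1 site (CTCAAG), the GC box bound by SP1 (GGGCGG) and the TATA box (TATAAA). The GC box was the only one of the 5 found in these windows, with 2 matches before Scnn1g and 1 on the minus strand before Scnn1b, and it is also held by 32.7% of all 32851 windows of the same length. The other motifs are held by 16.1%, 12.6%, 13.3% and 12.4% of the windows in the order glucocorticoid, TEAD, NKX2-1 and TATA. GC content was 65.2% for Scnn1g and 60.8% for Scnn1b, against a median of 52.4% over all windows. These matches are descriptions of letters and no binding was measured.

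A cell held a median of 1386.5 UMIs and 788 genes in Batch 1 and of 2014 UMIs and 1048 genes in Batch 2, and the batches shared 0 barcodes. Cells were clustered without the 7 genes and the clusters named from marker genes, with "-like" added because the names were rebuilt. In Batch 1, the lineage (epithelial, endothelial, mesenchymal or immune) was the one the study lists for 98.8% of 1810 cells that had a lineage in both. The study names no mesothelial type, and 19 of the 20 listed mesothelial-like cells were listed as MatrixFB-2, a matrix fibroblast type. Their cluster held 8 of 8 mesothelial and 5 of 7 matrix fibroblast 2 markers. Among classes with a listed type of their own, AT1-like was the weakest match. Of its 99 listed cells, 66 were listed as AT1 and 23 as mixed endothelial and epithelial cells. Those 23 lay in a single cluster of 69 cells in Batch 1 and 8 in Batch 2. Its summed level of 5 endothelial markers (Pecam1, Cdh5, Emcn, Cldn5 and Ramp2) was 2589 and 3160 in the 2 batches, in UMIs per 1000000 UMIs of the same cells (CPM), against 402 and 61.3 CPM in the remaining AT1-like cells. AT1-like values are therefore given with and without the cluster that held endothelial markers where the difference matters. The AT1/AT2-like cells were deeper than either parent class, with medians of 4620 and 5615 UMIs. Scrublet marked 2 of 270 of them as doublets, and 13 of 488 AT1-like cells, a class that holds the 23 listed mixed cells. Whether AT1/AT2-like cells are single cells or mixtures of an AT1-like and an AT2-like cell was not tested.

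The salt transport genes were concentrated in the epithelium and the water channel in the endothelium. Epithelial cells were 14.8% of the cells and held 23% of all UMIs in Batch 1, and were 26% of the cells with 44.5% of all UMIs in Batch 2. They held 92.7% and 95.6% of the Scnn1a UMIs, 96.7% and 94.6% of the Scnn1b UMIs, and 98.4% and 95.7% of the Scnn1g UMIs. Likewise they held 91.3% and 95.2% of the Atp1b1 UMIs and 85.7% and 95.2% of the Cftr UMIs, but only 54.8% and 80.9% of the Slc12a2 UMIs. Endothelial cells held 67.5% and 74.7% of the Aqp1 UMIs, against 22.6% and 24.2% of all UMIs.

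**Figure D1:**
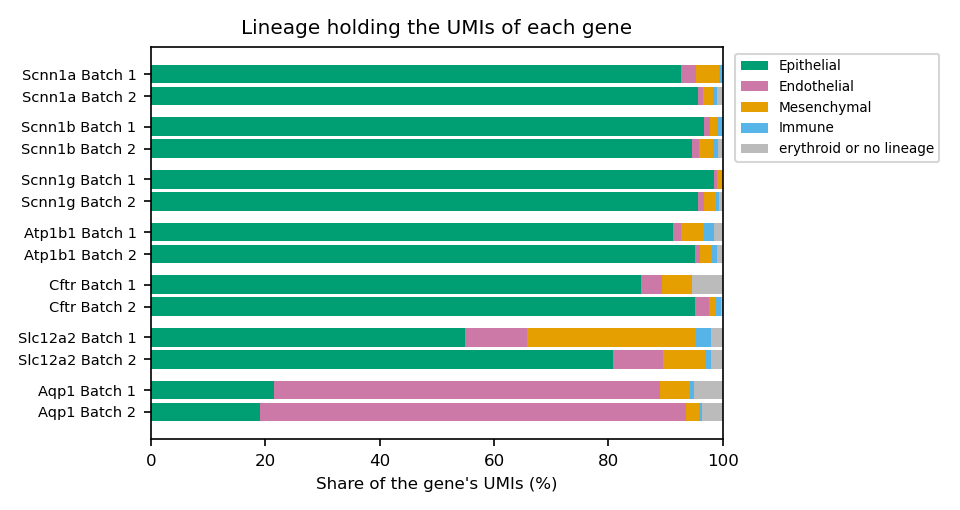
Share of each gene's UMIs (horizontal axis, percent) held by each lineage, with 1 bar per gene and batch. The bars of the sodium channel subunits, Atp1b1 and Cftr are mostly epithelial in both batches (at least 85.7%), Slc12a2 is split between lineages, and Aqp1 is mostly endothelial (67.5% and 74.7%).

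UMIs were summed by lineage and batch and the sums compared by edgeR's quasi-likelihood test with Benjamini-Hochberg adjustment over all genes tested. Each difference was set against the spread left between the sums once a shift shared by a whole batch was removed. The fit takes the mean of the other lineages on the log scale, so each lineage weighs equally whatever its level. All 7 genes passed the filter on low counts and all 7 were called higher in the epithelium on that scale, where 33.2% of 11987 genes were called, 19.9% as higher. The differences, in log2 units with their standard errors, were 5.11 ± 0.22 for Scnn1a, 5.00 ± 0.33 for Scnn1b and 5.72 ± 0.38 for Scnn1g. They were 5.11 ± 0.18 for Atp1b1, 4.80 ± 0.35 for Cftr, 2.73 ± 0.21 for Slc12a2 and 1.14 ± 0.23 for Aqp1. The median of the 7 was 5.00, against −0.02 over all genes tested, and the largest adjusted p was that of Aqp1 (0.00468). For Aqp1 the scale of the mean set the direction. Its epithelial level, 237 CPM in Batch 1 and 139 CPM in Batch 2, lay below the plain mean of the other lineages, 274 and 356 CPM, with the endothelium at 762 and 1007 CPM. The mesenchymal lineage was at 35.1 and 35.3 CPM and the immune lineage at 26 and 26.6 CPM. Leaving out the AT1-like cluster with endothelial markers lowered the epithelial log2 difference of Aqp1 to 0.78 ± 0.18 (adjusted p = 0.00612). In the endothelium 1 of the 7, Aqp1, was called higher than in the mean of the other lineages, by 3.85 ± 0.21 in log2 units (adjusted p = 1.43e-05), where 15.2% of the genes were called higher. The 3 channel subunits and Atp1b1 were called lower there, with log2 differences from −2.62 to −3.27, where 13.2% were called lower. The mean they were set against includes the epithelium, which held most of their UMIs, so these calls partly repeat the epithelial ones. The endothelium was not tested against the mesenchymal or the immune lineage alone. Cftr and Slc12a2 did not pass the threshold in the endothelium (adjusted p = 0.129 and 0.0708). Slc12a2 was called lower there, with a log2 difference of −0.68 ± 0.22, once the AT1-like cluster with endothelial markers was left out (adjusted p = 0.0377).

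Among the sodium channel subunits, Scnn1a, which encodes the alpha subunit needed for a working channel, was found in all 4 epithelial classes. Its level was 461 CPM in Batch 1 and 805 CPM in Batch 2 in AT1-like cells, the flat cells that cover most of the air space surface. It was 375 and 525 CPM in the cells with markers of both types (AT1/AT2-like), 229 and 462 CPM in the airway epithelium, and 147 and 296 CPM in AT2-like cells, the surfactant makers. The ranges of these 4 classes overlapped each with the next in that order. All 4 were above every ranked class outside the epithelium, where the highest single value was 72.5 CPM in neutrophil-like cells of Batch 2. Erythroid-like cells were not ranked. In the airway, Scnn1a reached 307 and 522 CPM in the 6 and 29 ciliated-like cells.

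Scnn1b, the beta subunit gene, was at 200.1 and 249 CPM in AT1-like cells, 72.2 and 109 CPM in AT1/AT2-like cells, 76.4 and 89.1 CPM in the airway, and 14.5 and 25.6 CPM in AT2-like cells. The AT1-like values lay apart from those of the next class, and the AT2-like values lay below those of the other 3 epithelial classes. Scnn1g, the gamma subunit gene, was at 431 and 608 CPM in AT1-like cells and at 195 and 289 CPM in AT1/AT2-like cells, each apart from the next. It was at 38.2 and 78.2 CPM in the airway and at 26.9 and 58.0 CPM in AT2-like cells, which overlapped.

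**Figure D2:**
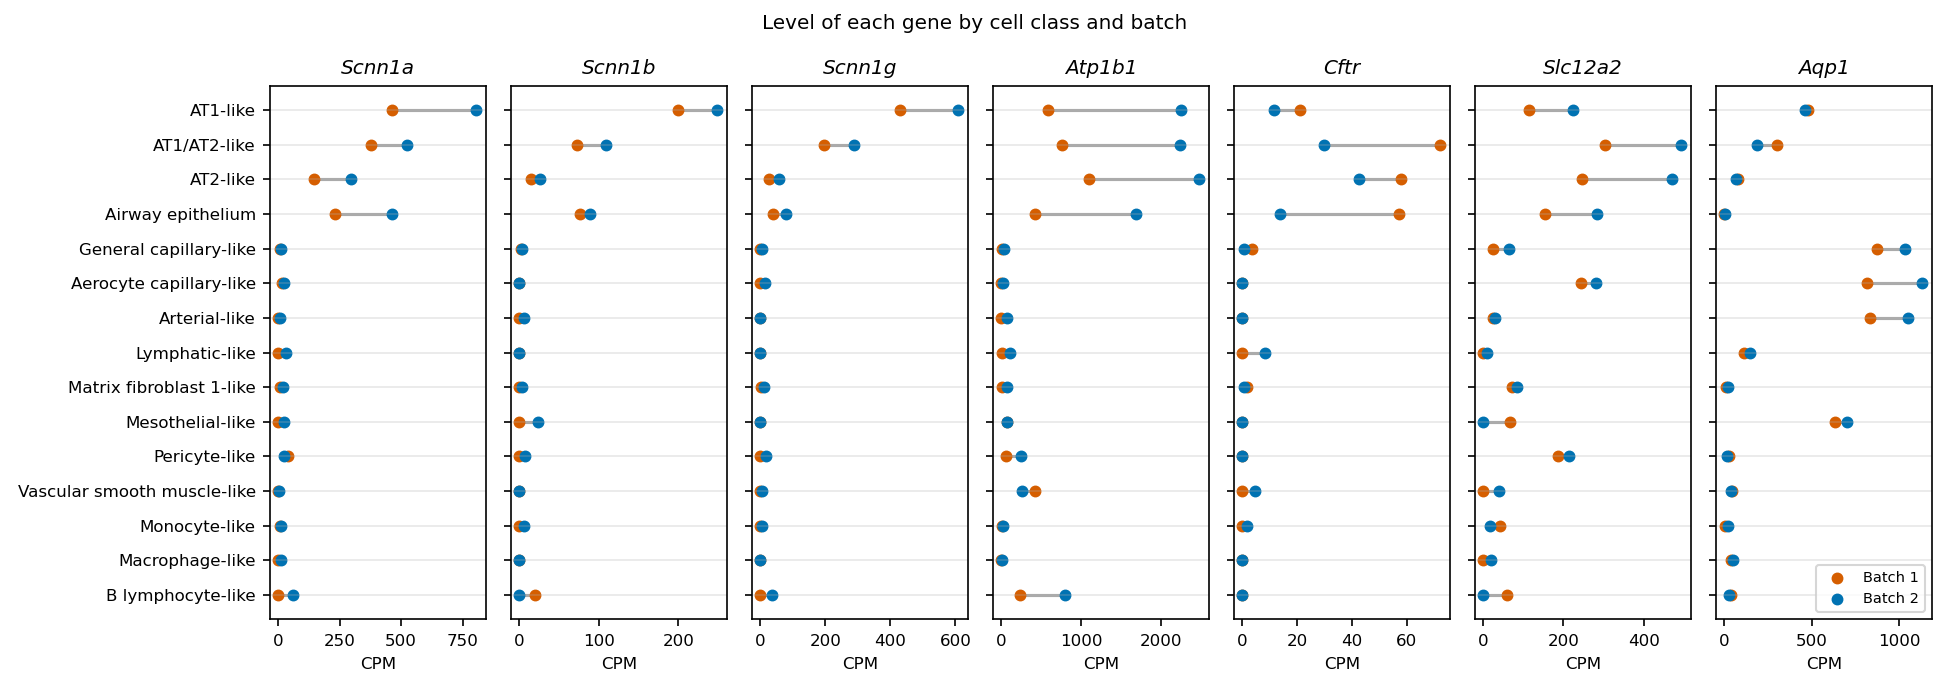
Level of each gene (horizontal axes, CPM, a scale of its own for each gene) in 15 cell classes, 1 point per batch, with a line between the batches. The subunits Scnn1b and Scnn1g are highest in AT1-like cells, Atp1b1 is high in all 4 epithelial classes, Slc12a2 is shared by epithelial, aerocyte capillary-like and pericyte-like cells, and Aqp1 is highest in blood endothelial classes and then in mesothelial-like and AT1-like cells.

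The share of AT1-like cells with at least 1 Scnn1a UMI was 65.3% (Wilson 95% interval 56.3 to 73.2) in Batch 1 and 79.5% (75.1 to 83.3) in Batch 2. It was 27% (21.2 to 33.7) and 56.9% (53.2 to 60.5) in AT2-like cells, although the median AT2-like cell of Batch 2 was deeper (3649 UMIs against 2062). In monocyte-like cells, which are not known to use the channel, it was 1.11% and 2.63% at median depths of 1448 and 1761 UMIs. The Wilson intervals cover counting error only. Immune classes differed in Scnn1a level. In Batch 2 it was at 12.8 CPM in monocyte-like, 72.5 CPM in neutrophil-like and 61.5 CPM in B lymphocyte-like cells. It was at 9.59 CPM in macrophage-like cells and at 0 CPM in the other named immune classes. In Batch 1 it was at 6.12 CPM in monocyte-like cells and at 0 CPM in the other named immune classes.

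With each cell thinned to 600 UMIs, the Scnn1a shares were 29.7% and 37.8% in AT1-like cells, 8.47% and 14.5% in AT2-like cells, and 0% and 0.752% in monocyte-like cells. The Scnn1g shares were then 17.8% and 33.8% in AT1-like and 1.59% and 3.34% in AT2-like cells, and the Scnn1b shares 11.9% and 10.3% against 0% and 1.89%. At equal depth the AT1-like shares were thus above the AT2-like shares for each subunit in each batch. All UMIs counted, 55.1% and 70.5% of AT1-like cells held UMIs of at least 2 of the 3 subunits, against 4.23% and 13.2% of AT2-like cells and 0% and 0.376% of monocyte-like cells. After thinning, UMIs of at least 2 subunits were seen in 11% and 17.6% of AT1-like cells and in 0.529% and 0.871% of AT2-like cells. In the deeper AT1/AT2-like cells the unthinned shares with at least 2 were 48.1% and 71.6%, and the thinned shares 3.70% and 2.47%. All 3 subunits were seen, unthinned, in 22.9% and 31.4% of AT1-like cells, 11.1% and 36.6% of AT1/AT2-like cells, 7.69% and 25.2% of airway cells and 1.59% and 3.19% of AT2-like cells. Airway cells of Batch 2 had a median of 6076 UMIs. After thinning, at least 2 subunits were seen in 0% and 1.68% of airway cells.

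**Figure D3:**
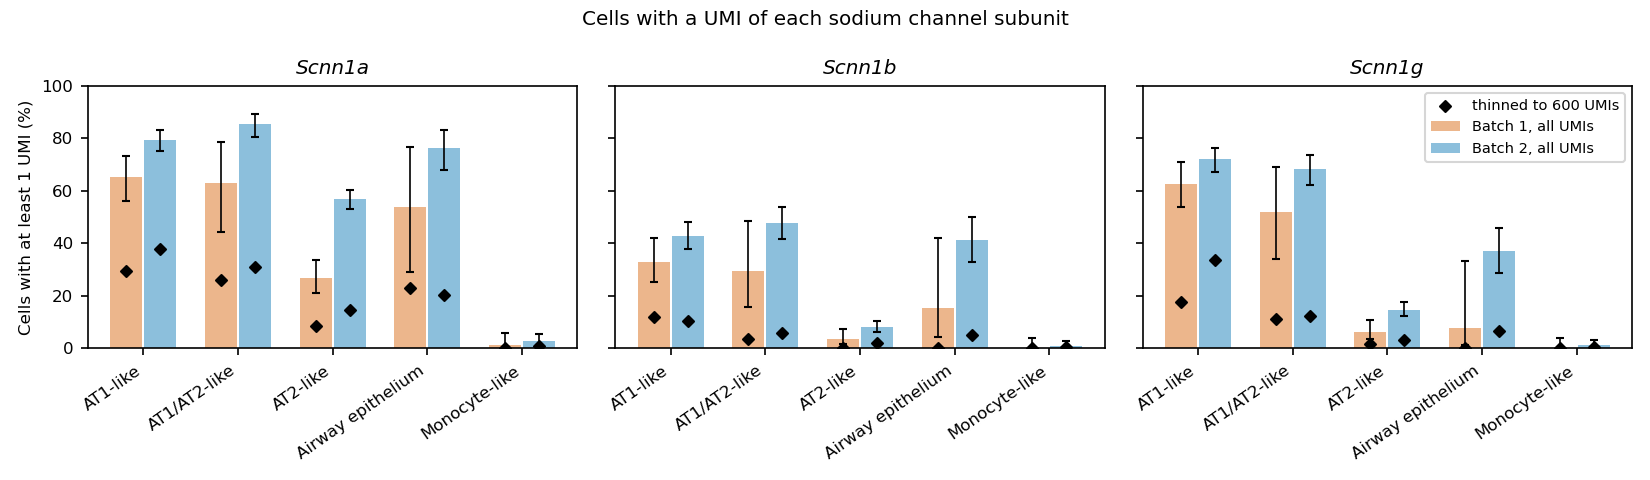
Share of cells with at least 1 UMI (vertical axis, percent) of each sodium channel subunit in 4 epithelial classes and in monocyte-like cells, by batch. Bars are unthinned shares with Wilson 95% intervals and diamonds the shares after thinning to 600 UMIs per cell; AT1-like bars and diamonds stand above AT2-like ones for all 3 subunits, and monocyte-like cells stay at 2.63% or less.

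To compare AT1-like with AT2-like cells over the batches, class sums were tested in 1 fit of 26 classes. Of the 7 genes, 6 passed the filter on low counts and 5 were called, 4 higher in AT1-like and 1 higher in AT2-like cells, where 9.76% of 7056 genes were called (5.51% higher and 4.25% lower in AT1-like). Scnn1g was higher in AT1-like cells by 3.35 ± 0.43 in log2 units (adjusted p = 1.88e-07) and Scnn1b by 3.16 ± 0.49 (adjusted p = 7.41e-06). Scnn1a was higher by 1.16 ± 0.39 with an adjusted p of 0.0483, close to the threshold, and the difference was 1.17 in Batch 1 and 1.19 in Batch 2. The Scnn1a call was lost under 5 of the alternatives, with adjusted p from 0.0551 to 0.442, and its size stayed between 1.09 and 1.44 in these.

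Without the cluster that held endothelial markers, the 3 subunits were higher in AT1-like cells by 1.35 ± 0.39, 3.33 ± 0.52 and 3.63 ± 0.44 for Scnn1a, Scnn1b and Scnn1g, and all 3 were called (adjusted p = 0.0194, 7.23e-06 and 7.53e-08). The 49 AT1-like cells of Batch 1 that remain held 1041 CPM of the 5 mesenchymal markers beside 1426 CPM of the epithelial ones, against 80.3 and 2213 CPM in the 362 cells of Batch 2, and the part of this in the differences was not tested. Whether Scnn1a differed less than Scnn1b and Scnn1g was not tested. The median difference of the 6 genes was 1.73 against −0.05 over all genes tested.

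In the airway epithelium, 13 cells in Batch 1 and 119 in Batch 2, 2 of the 6 tested genes were called against the mean of AT1-like and AT2-like cells, both lower, where 16.7% of genes were called, 8.87% as higher and 7.84% as lower. Scnn1g was lower by 1.55 ± 0.43 in log2 units (adjusted p = 0.00739), a call that was lost without the batch term and with DESeq2. Scnn1a and Scnn1b differed by −0.29 ± 0.37 and 0.02 ± 0.54 and did not pass the threshold. Within the airway of Batch 2, the 29 ciliated-like cells were at 522 CPM for Scnn1a but at 10.3 CPM for Scnn1b and 5.17 CPM for Scnn1g (2 UMIs and 1 UMI), while the 31 secretory-like cells were at 386, 129 and 129 CPM. The other 59 airway cells of Batch 2 held markers of both types and were deep, with a median of 11959 UMIs. They held 1227355 of the 1661774 airway UMIs of Batch 2, so the airway levels of that batch are mostly theirs. The ciliated-like and secretory-like cells were not tested against each other, since Batch 1 held 6 and 4 of them.

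**Figure D4:**
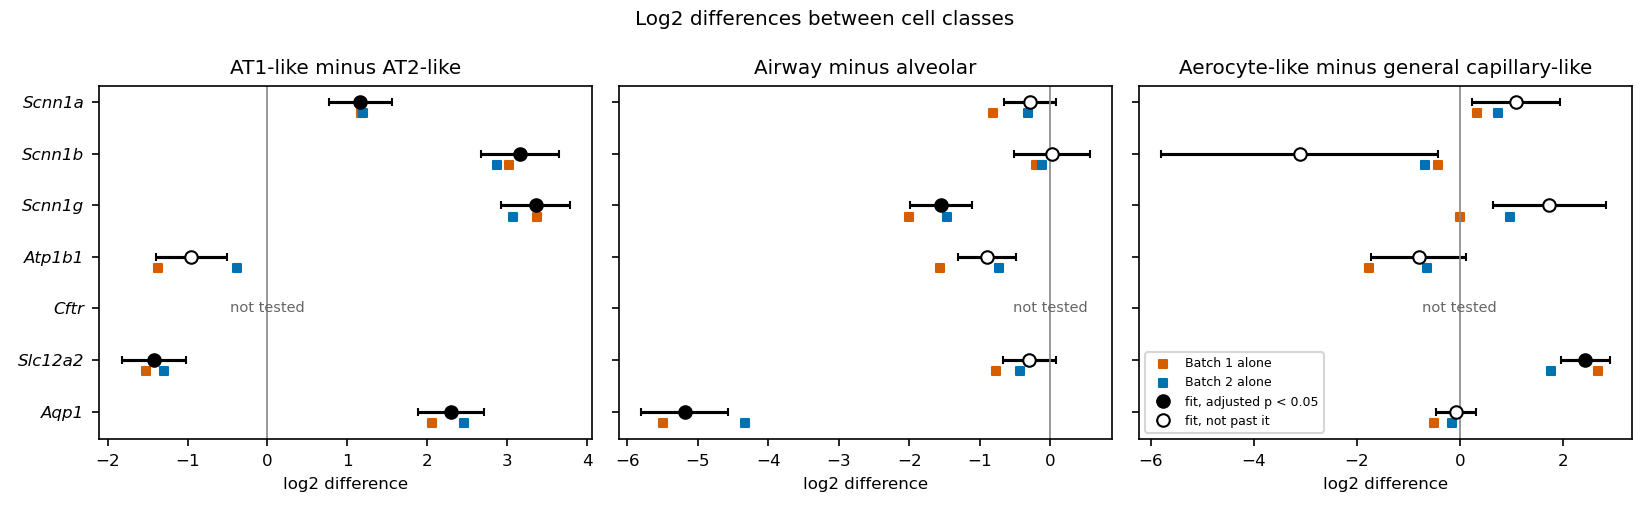
Log2 differences (horizontal axes) of each gene between AT1-like and AT2-like cells, between airway and alveolar epithelium, and between aerocyte and general capillary-like cells. Circles are fitted values with standard errors, filled where the adjusted p was under 0.05, and squares are single batches; the subunits and Aqp1 are right of 0 and Slc12a2 left of 0 in the AT1-like panel, and only Slc12a2 is filled in the capillary panel (2.44).

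The pump subunit gene Atp1b1 was high in all epithelial classes. Its level was 1102 CPM in Batch 1 and 2475 CPM in Batch 2 in AT2-like cells, 765 and 2232 CPM in AT1/AT2-like cells, 582 and 2242 CPM in AT1-like cells, and 420.4 and 1683 CPM in the airway. All 4 ranges overlapped, and in each class Batch 2 was the higher, a difference between batches that has no replicate. The batches differ in mouse, preparation and sequencing, and these cannot be told apart. AT1-like cells differed from AT2-like cells by −0.95 ± 0.44 in log2 units (adjusted p = 0.2), and the airway from the alveolar classes by −0.90 ± 0.41 (adjusted p = 0.135).

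After thinning, 35.6% and 71.9% of AT1-like and 48.7% and 75.5% of AT2-like cells held an Atp1b1 UMI, against 0% and 0.376% of monocyte-like cells. Outside the epithelium, Atp1b1 was at 236 and 799 CPM in the 28 and 38 B lymphocyte-like cells and at 424 and 254 CPM in the 13 and 90 vascular smooth muscle-like cells. Atp1b1 was at 357 and 255 CPM in the 5 and 10 basophil or mast-like cells. Among the B lymphocyte-like cells with no UMI of the 5 epithelial markers (Epcam, Cdh1, Nkx2-1, Krt8 and Krt18), 26 and 34 cells, it was still at 232 and 612 CPM. In vascular smooth muscle-like cells without those markers it was at 424 and 263 CPM. Pericyte-like cells were at 53.6 and 243 CPM.

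Of the chloride genes, Cftr was the sparsest of the 7, with 56 UMIs in Batch 1 and 249 in Batch 2. Its level was 57.9 and 42.7 CPM in AT2-like cells, 72.2 and 29.8 CPM in AT1/AT2-like cells, 57.3 and 13.8 CPM in the airway, and 21.2 and 11.7 CPM in AT1-like cells. The ranges of these classes overlapped in part, and the airway value of Batch 1 rests on 3 UMIs. A Cftr UMI was seen in 12.7% (8.68 to 18.2) and 15.1% (12.6 to 18) of AT2-like cells, in 3.39% and 3.51% of AT1-like cells and in 0% and 0.376% of monocyte-like cells. After thinning, the shares were 2.12% and 1.60% in AT2-like and 0.847% and 0% in AT1-like cells.

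Cftr did not pass the filter on low counts in the class sums. With no such filter it was lower in AT1-like than in AT2-like cells by 2.00 ± 0.57 in log2 units (adjusted p = 0.0196), and the single batches gave −1.68 and −1.77. The p-values of fits without the filter are not comparable with the others. For Cftr in the epithelium, edgeR's adjusted p was 1.53e-05 with the filter and 6.43e-30 without it. The log2 differences there were 4.80 and 4.79. The value of 0.0196 is therefore not counted as a call.

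Slc12a2 was the least restricted of the salt transport genes. Its level was 303 and 493 CPM in AT1/AT2-like cells, 246 and 471 CPM in AT2-like cells, 153 and 283 CPM in the airway and 115 and 224 CPM in AT1-like cells. Aerocyte capillary-like cells, the large capillary cells of the gas exchange surface, were at 243 and 280.2 CPM, and pericyte-like cells, which wrap capillaries, at 188 and 213 CPM. These classes overlapped each with the next, whereas general capillary-like cells were at 24.2 and 63.8 CPM and lymphatic-like cells at 0 and 8.31 CPM. Cells with markers of both capillary types (aerocyte/general capillary-like) lay between the 2 capillary classes in each batch, at 63.7 and 135 CPM.

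AT1-like cells were lower in Slc12a2 than AT2-like cells by 1.43 ± 0.40 in log2 units (adjusted p = 0.0127), opposite in direction to the channel subunits, and the call was lost without the batch term and with DESeq2. The filter on low counts ran over all classes, so the 6 genes tested between the capillary classes include some nearly absent from both. Scnn1b was at 0 CPM in aerocyte-like cells of both batches and at 1.86 and 2.92 CPM in general capillary-like cells. In the capillaries, Slc12a2 was the 1 gene of the 6 tested that was called, higher in aerocyte-like than in general capillary-like cells by 2.44 ± 0.47 (adjusted p = 0.00195), where 0.298% of genes were called higher. The single batches gave 2.67 and 1.77. The call was lost without the batch term (2.4, adjusted p = 0.273), and no value was available at a clustering resolution of 1.5. There a cluster of 281 cells with Car4 and Ednrb as leading genes held markers of both capillary types.

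After thinning, 13.3% and 14.7% of aerocyte-like cells held a Slc12a2 UMI, against 1.37% and 3.09% of general capillary-like and 1.11% and 1.13% of monocyte-like cells. In aerocyte-like cells with no UMI of the 5 epithelial markers, 43 and 119 cells, Slc12a2 was at 223 and 285 CPM. In pericyte-like cells without those markers it was at 193 and 216 CPM.

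The water channel gene Aqp1 had a pattern of its own. The blood vessel classes were the highest and overlapped each with the next, in a ranking that left out erythroid-like cells. Levels were 815 and 1131 CPM in aerocyte capillary-like cells, 873 and 1034 CPM in general capillary-like cells and 834 and 1051 CPM in arterial-like cells. Aerocyte-like and general capillary-like cells differed by −0.08 ± 0.39 in log2 units, which did not pass the threshold and whose direction turned with DESeq2 (0.25) and in a fit of these 2 classes alone (6.5e-04). Lymphatic-like endothelium was lower, at 112 and 149.5 CPM. After thinning, 38.7% and 43.3% of general capillary-like cells held an Aqp1 UMI, against 0% and 2.26% of monocyte-like cells.

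Mesothelial-like cells, which cover the lung surface, were at 631 and 700 CPM of Aqp1 in 21 and 11 cells. They were higher than matrix fibroblast-like cells by 5.01 ± 0.47 in log2 units (adjusted p = 3.07e-12), the 1 gene called of the 6 tested, where 7.27% of 7056 genes were called, 4.63% as higher and 2.64% as lower. The 18 and 8 mesothelial-like cells with no UMI of the endothelial markers were at 582 and 914 CPM. Here too the 6 tested genes include some nearly absent from both sides. Scnn1g was at 0 CPM in mesothelial-like cells of both batches and at 0.868 and 10.7 CPM in the fibroblasts.

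In the epithelium, Aqp1 followed the alveolar type. It was at 479 and 459 CPM in AT1-like cells, 303 and 185 CPM in AT1/AT2-like cells, 80.7 and 67.4 CPM in AT2-like cells, and 0 and 6.02 CPM in the airway. With all cells used, the first 3 of these classes lay apart from each other. AT1-like cells were higher than AT2-like cells by 2.30 ± 0.42 (adjusted p = 5.7e-05), and the airway was lower than the alveolar classes by 5.19 ± 0.61 (adjusted p = 1.08e-09).

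Because endothelial cells are rich in Aqp1, the same values were taken without endothelial markers. Without the cluster that held them, AT1-like cells were at 297 and 423 CPM, which overlapped the AT1/AT2-like cells, and the difference from AT2-like cells was 2.05 ± 0.41 (adjusted p = 0.000279). In the 46 and 317 AT1-like cells with no UMI of any of the 5 endothelial markers, Aqp1 was at 403 and 431 CPM and was seen in 45.7% (32.2 to 59.8) and 52.1% (46.6 to 57.5) of cells. The 14 and 207 AT1/AT2-like cells without those markers were at 397 and 191 CPM, close to the AT1-like level in Batch 1 and below it in Batch 2. In AT2-like cells without them Aqp1 was at 40.0 and 61.0 CPM.

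Other genes of salt and water transport were taken from 5 lists of 86 genes in all, of which 48 were tested between lineages and 34 between classes. In the epithelium 25 of 48 were called higher and 9 lower than in the other lineages, against 19.9% of all genes higher and 13.3% lower, with a median difference of 0.83 against −0.02 over all genes. Of 15 tested genes that control the sodium channel, 9 were higher and 1 lower. Those with the largest differences over the lists were Prss8, a membrane protease that activates the channel (143 and 119 CPM in the epithelium, 5.69 ± 0.31), the water channel gene Aqp5 (377 and 304 CPM, 5.58 ± 0.32) and the protease gene Tmprss2 (51.9 and 74.4 CPM, 5.35 ± 0.37). Lower in the epithelium were Hsd11b1, which activates glucocorticoids (−3.03 ± 0.49), and the pump regulator Fxyd5 (−2.64 ± 0.67). The endothelium had 13 of 48 called higher and 15 lower, against 15.2% and 13.2% of all genes. Among them were Fxyd5 (2.67 ± 0.48), the kinase gene Sgk1 (1.74 ± 0.30) and the pump subunit Atp1b3 (1.24 ± 0.21) as higher, and Hsd11b1 (−3.02 ± 0.48) and the protease inhibitor Spint2 (−3.02 ± 0.32) as lower.

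Between AT1-like and AT2-like cells, 6 of 34 were called higher and 1 lower, against 5.51% of all genes higher and 4.25% lower, so the 1 lower is no more than that share. Aqp5 was at 791 and 946 CPM in AT1-like and at 88.9 and 134 CPM in AT2-like cells (2.60 ± 0.44), and Sgk1, whose kinase raises channel number at the membrane, was at 136 and 353 CPM against 16.5 and 48.8 CPM (2.52 ± 0.51). Both were higher in AT1-like cells in each batch. Fxyd5 was also called (2.62 ± 0.66), but Batch 1 gave 3.26 and Batch 2 gave 0.03, and without the cluster that held endothelial markers it was 0.74 ± 0.72 and no longer called (adjusted p = 0.744). The potassium channel gene Kcnj15 was lower in AT1-like cells (−2.20 ± 0.52).

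Against the alveolar classes, the airway had 3 of 34 higher and 6 lower, against 8.87% and 7.84% of all genes, so its share of higher genes was like that of all genes. Usp2, a deubiquitinase that acts on the channel, was higher (4.19 ± 0.69), as were Slc9a3r1 (1.60 ± 0.49), a scaffold for CFTR, and Tmprss2 (1.39 ± 0.49). Sgk1 (−3.31 ± 0.64), the carbonic anhydrase gene Car2 (−2.66 ± 0.62) and Aqp5 (−2.25 ± 0.46) were lower. The airway sum of Batch 1 is small, 52334 UMIs from 13 cells, so its values rest on few UMIs. There Slc9a3r1 was at 57.3 CPM, Car2 at 38.2 CPM and Sgk1 and Aqp5 at 0 CPM, where a count of 0 allows up to 57.3 CPM. Between the capillary classes edgeR called 0 of the 34 genes, with 0 at an unadjusted p under 0.05, and DESeq2 called 0 of 69, with 1 at an unadjusted p under 0.05. There 36 of 7056 genes (0.51%) were called. Mesothelial-like cells had 6 of 34 higher and 2 lower than matrix fibroblast-like cells, against 4.63% and 2.64% of all genes, with the scaffold gene Slc9a3r1 at 361 and 217 CPM (8.41 ± 0.96), the chloride channel gene Ano1 at 248 and 434 CPM (7.81 ± 0.90) and Fxyd3 at 226 and 121 CPM (5.45 ± 0.81). Hsd11b1 was called lower there and held no UMI in mesothelial-like cells, which allows up to 67.7 and 72.4 CPM in the 2 batches, against 298 and 454 CPM in the fibroblasts.

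The genes whose pattern over the 52 class and batch sums was most like each of the 7 were found by Pearson correlation of log2(CPM + 1) among 11331 genes with at least 50 CPM in 1 sum. The sums share libraries and depth, so these values are descriptions. For Scnn1a they were Akr1c14 (0.85), Tmem213 (0.83) and Cldn3 (0.82). Scnn1b was most like Clip4 (0.87), Esrp1 (0.85) and Prss8 (0.85), and Scnn1g most like 2310007B03Rik (0.86), Crb3 (0.85) and Irx1 (0.84). For Atp1b1 they were Chchd10 (0.72), Nkx2-1 (0.70) and Prss8 (0.67). Cftr was most like Scgb1c1 (0.85), Kcne2 (0.84) and Reep6 (0.82), Slc12a2 most like Rnf114 (0.79), Stam (0.74) and Inppl1 (0.74), and Aqp1 most like Rapgef3 (0.83), Gpr116 (0.82) and Ehd2 (0.81).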

How the data were processed

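Reads were mapped by the authors (Bowtie2 2.2.7, genome build mm10, per the labels), and the authors deposited UMI counts per gene and cell, not normalized, with the mitochondrial filter not applied. The 7 genes and the transport lists were chosen with earlier results of these data known. Cells with over 10% mitochondrial counts were left out here. Cells were clustered (2000 variable genes without the 7, 40 components, Leiden resolution 3, 54 clusters) and named from markers, with 496 cells unnamed. The classes come from the same counts, so tests between them are partly circular for genes correlated with the clustering genes. Scrublet marked 131 of 8003 cells as doublets (1.64%), which were kept and left out in an alternative.

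Counts were summed by lineage or class (at least 5 cells per batch) and batch, and tested with edgeR 4.0.16 in R 4.3.3 (TMM, filterByExpr, quasi-likelihood, batch as the replicate block, adjusted p under 0.05). Standard errors were taken from the F statistic. The batch pairs the sums because those of a batch come from 1 mouse, and their batch deviations correlated with a median of 0.309 over lineages and 0.138 over classes (lowest 0.0195). With 2 mice, p-values rest on the spread left between the lineage or class sums once the shift shared by a batch is removed. Single-batch differences used a prior count of 2. Airway cells were set against the mean of AT1-like and AT2-like cells, and mesothelial-like cells against the mean of matrix fibroblast 1-like and 2-like cells. Named transport genes were, per comparison, up to 3 with the largest change in each direction among those called, with at least 50 CPM (mean of the batches) in the higher side, and agreeing in sign between the batches. Some results this rule names are not reported here. Simulated counts for AT1-like against AT2-like cells were used to test the model. It found 50 of 105 changes of log2 size 2 and 1 of 86 of log2 size 1, with 0 false calls. The spread in the simulation was assumed and not estimated from these data, so the rates need not hold for these data. A difference near log2 size 1 that was not called is therefore not shown to be absent. Values in cells without another lineage's markers, without the mixed AT1-like cluster and without listed contaminants were chosen after seeing the data. Other alternatives were DESeq2 1.42.0, no gene filter, a resolution of 1.5, a mitochondrial limit of 5%, only the classes compared, 2 UMIs and thinning to 600 UMIs.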

Additional observations from a re-analysis of the deposited data

Results flagged for a closer look

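The deposited matrix of Batch 2 also held 1940 cells over the mitochondrial limit, which no comparison above uses and which were given no class. The 7 genes are listed because their shares were above the one that a count of 0 would allow (0.155%), a limit that any gene with a few UMIs passes. No background share was measured in these cells, so the shares are given as values only. Cells with at least 1 UMI were 23.1% for Scnn1a, 7.53% for Scnn1b, 13.5% for Scnn1g, 43.5% for Atp1b1, 2.78% for Cftr, 30.2% for Slc12a2 and 24.5% for Aqp1. Batch 1 held 1 such cell. What these cells are was not tested.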

How the results depend on the processing

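The 21 called differences of single genes kept their direction in all 176 refits and in all 42 single-batch values, and 166 of the refits kept the call. Of 137 refits of differences that had not been called, 5 passed the threshold: Slc12a2 in the endothelium at resolution 1.5 (−0.65), without the mixed cluster (−0.68) and without the listed contaminants (−0.69), Atp1b1 between AT1-like and AT2-like cells with only the classes compared (−0.79), and Atp1b1 in the airway with no gene filter (−1.09). Without the batch as the replicate block, the genes called fell from 5 to 3 between AT1-like and AT2-like cells, from 2 to 1 between airway and alveolar epithelium and from 1 to 0 between the capillary classes (edgeR, with 1 at an unadjusted p under 0.05, and 1 by DESeq2), and the block changed no other count of these genes by over 1.5 times. With DESeq2 the first 2 counts were 3 and 1. Over all genes, calls between the capillary classes were 36, and 2 without the block, 21 with DESeq2 and 226 in a fit of only the classes compared. For AT1-like against AT2-like cells they were 689, and 245 without the block and 1847 with only the classes compared, and for the airway 1179, 752 without the block, 1988 with no gene filter and 2320 with only the classes compared. Without the block the lineage calls were 2623 of 3980 for the epithelium and 2128 of 3406 for the endothelium. Reversed directions were all of differences that had not been called: Scnn1b in the airway was −0.16 with no gene filter, −0.089 at resolution 1.5 and −0.017 without the mixed cluster, Slc12a2 there was 3.8e-03 at resolution 1.5, Aqp1 between the capillary classes was 0.25 with DESeq2 and 6.5e-04 with only the classes compared, and Atp1b1 in mesothelial-like cells was −0.034 with no gene filter. The cause was not tested.

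Shares of cells depend on depth. Over both batches, AT1-like cells with Scnn1a were 76.0%, and 47.5% with at least 2 UMIs, 35.9% after thinning and 62.5% in the AT1 cells the study lists in Batch 1. AT2-like cells with Atp1b1 were 96.4%, and 69.7% after thinning and 84.8% in the listed AT2 cells. General capillary-like cells with Aqp1 were 73.9%, and 51.6% with at least 2 UMIs, 42% after thinning and 58.1% in the listed vascular endothelial cells. The single batches gave 65.3% to 79.5%, 87.3% to 98.8% and 60.6% to 79.2%.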
